A study of Rattus norvegicus with 16 samples.

Results

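The genes described here encode proteins that make ribosomes, from the RNA polymerase that transcribes ribosomal RNA to the factors that fold, cut and assemble it into subunits. They were 50 gene symbols chosen for these roles with earlier results of these data known. The symbols were matched without regard to case to the gene symbol of each transcript cluster (the array's probe group for 1 gene) in the platform annotation. A cluster was found for 41 of the 50, 1 cluster each, among 15037 genes named on the array and 23188 clusters in all. The other 9 symbols, Nhp2, Nol11, Wdr75, Nop14, Nol6, Rrp12, Tsr1, Rrp1b and Nol9, matched no cluster by symbol, gene number or older symbol, and they were not analysed here.

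RNA came from 832/13 INS1 β cells, a clonal line derived from a rat insulinoma that makes insulin and responds to glucose. Cells were transduced with a lentivirus for GFP, the control, or for the B cell transcription factor Pax5 (MOI 1.25). The virus was left on for 24 h, fresh medium with 11.1 mM glucose followed for 48 h, and cells were collected at 72 h. Per the study, the vectors carried the human phosphoglycerate kinase promoter, and a virus at this dose can leave some cells without a vector. The 16 arrays fall into 8 numbered experiments with 1 GFP and 1 Pax5 array each, and no untransduced cells were analysed here. The labels do not say whether the experiments were separate passages, so p reflects how far these experiments differ and no wider variation. Array medians lay between 6.98 and 7.01 on the log2 scale, arrays correlated with each other at 0.989 to 0.999, and precision is limited by the number of arrays. The Pax5 cluster lay between 7.23 and 8.39 in GFP arrays and between 17.02 and 17.56 in Pax5 arrays, which fits the labels. Of 9 measured β cell markers (12 listed), 1 rose, the amylin gene Iapp, by 0.46 on the log2 scale, 1 fell, the zinc transporter gene Slc30a8, by 0.40, and 7 did not pass the test. The shares higher and lower were 11.1% each, against 14.6% and 16.1% of all clusters. Ins1, an insulin gene, lay between 18.26 and 18.37 in GFP arrays and between 18.17 and 18.30 in Pax5 arrays, and none of 14 measured exocrine, stromal or blood markers passed the test. Of 6 measured markers of other islet cells, 1 rose, the glucagon gene Gcg, from a range of 17.20 to 17.52 in GFP arrays to 17.89 to 18.21 in Pax5 arrays. The other 5, the somatostatin gene Sst among them, lay between 4.72 and 6.04 in all 16 arrays. Whether glucagon-expressing cells have a part in the results was not tested. In bulk RNA, fewer cells of a type and less RNA per cell cannot be told apart. Where a protein or subunit is said below to fall or rise, its transcript is meant, and protein levels were not analysed here.

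Ribosomes are built in the nucleolus, where RNA polymerase I transcribes a long precursor of ribosomal RNA. Box C/D and box H/ACA ribonucleoproteins, each led by a small nucleolar RNA, methylate or pseudouridylate the precursor, and the small subunit processome folds and cleaves it, after which the small and large subunits mature separately and leave the nucleus. The transcription factor MYC is known for raising the expression of many of these genes in growing cells, and secretory cells such as β cells depend on a large supply of ribosomes to make hormone.

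Promoter sequence was taken from RefSeq for rat build GRCr8, as 250 bases before and 50 bases after the annotated start, which was found for 38 of the 41 measured genes (no entry for Wdr43, Bop1 and Rrs1). The promoters of the 3 genes with the largest falls that had an entry are shown whole, since they show where known motifs lie near the start of strongly changed genes. Capitals mark CACGTG, the E-box bound by MYC with MAX, GCGTGAC, a part of the DNA sequence recognised by the paired domain of Pax5, and CCGGAAGT, a site of ETS family factors. All sequences are written 5′ to 3′ on the strand of the gene.
Ddx21 (chr20:31097189-31097488, - strand): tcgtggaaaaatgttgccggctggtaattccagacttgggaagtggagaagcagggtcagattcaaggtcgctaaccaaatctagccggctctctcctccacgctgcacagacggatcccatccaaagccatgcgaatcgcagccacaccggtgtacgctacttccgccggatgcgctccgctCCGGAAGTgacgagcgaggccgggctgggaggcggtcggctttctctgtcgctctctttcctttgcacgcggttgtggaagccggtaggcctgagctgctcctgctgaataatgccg
Ebna1bp2 (chr5:137433284-137433583, + strand): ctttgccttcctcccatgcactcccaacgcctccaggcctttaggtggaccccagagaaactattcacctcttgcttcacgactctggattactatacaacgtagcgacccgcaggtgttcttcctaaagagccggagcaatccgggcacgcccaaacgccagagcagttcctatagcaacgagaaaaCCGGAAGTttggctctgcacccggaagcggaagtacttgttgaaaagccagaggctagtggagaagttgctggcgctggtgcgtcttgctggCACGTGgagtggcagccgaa
Gnl3 (chr16:6219733-6220032, - strand): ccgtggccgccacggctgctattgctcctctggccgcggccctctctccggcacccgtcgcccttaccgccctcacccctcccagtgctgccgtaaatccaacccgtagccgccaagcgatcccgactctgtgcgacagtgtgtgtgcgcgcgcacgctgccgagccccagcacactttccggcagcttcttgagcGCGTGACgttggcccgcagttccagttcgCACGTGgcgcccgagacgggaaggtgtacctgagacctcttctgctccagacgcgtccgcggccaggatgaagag

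The E-box reads the same on both strands. It was found in 13 of the 38 promoters (34.2%), against 6.65% of 27457 promoters in the table and 7.94% of the 12435 promoters whose gene is named on the array. The other E-boxes are shown with 8 bases on each side where the promoter window holds them, for all genes that had one, so that those that fell with Pax5 and those that did not pass the test can be read side by side.
Fbl (chr1:92597420-92597441, + strand): cttttttcCACGTGtgaaagcc
Utp4 (chr19:51702208-51702229, + strand): cacgcgcgCACGTGggaccggg
Utp18 (chr10:79335834-79335855, - strand): gtgtcggtCACGTGgttcgagg
Utp18 (chr10:79335741-79335762, - strand): tggggctcCACGTGaacgtctg
Ltv1 (chr1:9398605-9398626, - strand): tgtctaccCACGTGtagagctg
Nop2 (chr4:159618996-159619015, + strand): cccaagtgCACGTGgagcgg
Ddx18 (chr13:35295972-35295993, - strand): gaactgcgCACGTGcatctgtc
Mybbp1a (chr10:57555294-57555315, + strand): tttctacaCACGTGtgcgagca
Mybbp1a (chr10:57555449-57555470, + strand): ttcgagccCACGTGtttggttc
Dkc1 (chrX:157751459-157751480, + strand): tcccggcgCACGTGcgggcccc
Utp20 (chr7:25102963-25102984, - strand): actagctaCACGTGagaaaaag
Noc3l (chr1:245997677-245997698, - strand): gctctgggCACGTGtgtgtttc
Pes1 (chr14:83074288-83074309, + strand): aagcggggCACGTGcggtagga

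Dkc1, Utp20, Noc3l and Pes1, the last group of these lines, did not pass the test between Pax5 and GFP. The E-box was present in 9 of 29 promoters of genes that fell (31.0%) and in 4 of 9 promoters of genes that did not pass (44.4%). The sequence GCGTGAC, searched on both strands, was found in 6 of 38 promoters (15.8%), against 2.09% of all promoters and 2.88% of those of genes named on the array. The motif was present in 6 of 29 promoters of genes that fell (20.7%) and in 0 of 9 promoters of genes that did not pass. Since 29 of the 38 promoters belong to genes that fell, most holders of any motif would be among them, and the difference was not tested. The 5 sites outside the Gnl3 promoter above are shown because this is the motif of the overexpressed factor, with GTCACGC where the match is on the opposite strand.
Gar1 (chr2:221056700-221056720, - strand): aggtggggGTCACGCtgggtg
Utp18 (chr10:79335941-79335963, - strand): ccactccaGTCACGCcgcttccc
Rrp9 (chr8:115996069-115996091, + strand): gattggagGCGTGACaggatctt
Ddx56 (chr14:85336233-85336255, - strand): gcgtggaaGTCACGCcatggagg
Nolc1 (chr1:254870125-254870147, + strand): ggacgggaGCGTGACctctgacg

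CCGGAAGT was found on either strand in 13 of 38 promoters (34.2%), against 4.01% of all promoters and 6.06% of those of genes named on the array. TGATGNAA, in which N is any base and which is bound by C/EBP and ATF factors in stressed cells, was found in 1 promoter, that of Gar1 (2.63%, against 3.82% of all promoters). No 2 of these matches overlapped each other. The promoters of the measured genes had a median GC content of 59.5%, against 52.3% for all promoters and 58.0% for those of genes named on the array, and GC content was not adjusted for in these shares. A match describes the letters of the window and does not show that a factor binds there.

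With Pax5, 32 of the 41 measured genes were lower at a limma adjusted p under 0.05 (78.0%), against 16.1% of all clusters and 16.7% of all named genes. The genes were chosen with earlier results of these data known, so this share is a description and not a test of the group. None was higher by this test, against 14.6% of all clusters and 15.7% of named genes, with 1 gene higher at an unadjusted p under 0.05 and 1 by the methods' paired t-test with Benjamini-Hochberg adjustment, in both cases Polr1a. The median log2 fold change of Pax5 over GFP was -0.38 over the 41 genes and 0.00 over all clusters. Single genes ranged from -0.82 to 0.18, and 38 of the 41 were below 0. The changes were moderate in size, with 10 genes at -0.50 or below and 0 lower by 2-fold or more. In 18 genes every Pax5 array lay below every GFP array, against 8.62% of all clusters. The Pax5 array was lower than the GFP array in 8 of 8 experiments for 21 genes, against 10.6% of all clusters. With all 8 differences of the same sign, the exact sign-flip permutation test always gives p = 0.00781, 2-sided, the smallest that 8 pairs allow. For these 21 genes it thus follows from their selection and adds no further support.

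The measured genes are bright on this array, and bright clusters pass the test more often. Their mean levels ranged from 7.27, above 52.1% of clusters, to 17.51, above 99.8%. Among the 7847 named genes as bright as the dimmest of them or brighter, 25.2% were lower and 22.0% were higher with Pax5. Among the 2991 named genes as bright as their median of 11.27 or brighter, 26.6% were lower and 21.8% were higher, and 17 of the 21 ribosome biogenesis genes in that range were lower. The array's probe response differs between genes, so levels are compared here between arrays and not between genes.

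**Figure D1:**
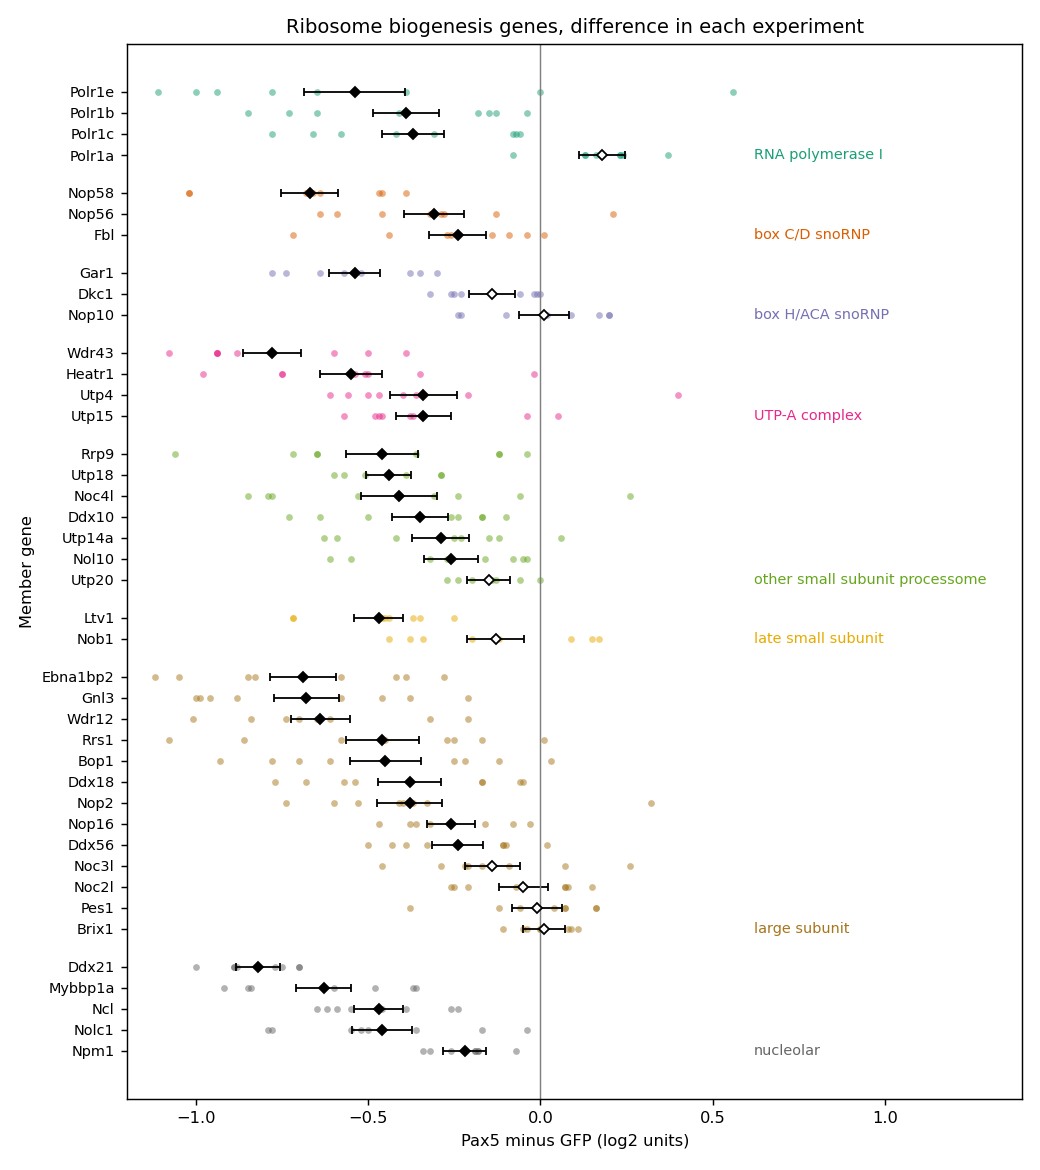
Difference between the Pax5 and the GFP array in each of 8 experiments (coloured points, log2 units) for the 41 measured genes, with the limma log2 fold change and its SE (diamonds with bars, filled where the adjusted p is under 0.05), grouped by role. All 5 nucleolar proteins lie left of 0 in every experiment, whereas Polr1a, Nop10, Brix1, Pes1 and Noc2l lie around or right of 0.

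Of 4 subunits of RNA polymerase I among the 41 genes, 3 fell and 1 did not pass the test (median log2 fold change -0.38). Further subunits are in a list of 14 other genes of RNA polymerase I transcription, given below. In that list 2 genes fell and 1 rose (median 0.04), so the falls here do not describe the whole enzyme. Polr1e, the subunit known as PAF53, lay at 10.90 to 11.86 in GFP arrays (median 11.63) and at 10.68 to 11.46 in Pax5 arrays (median 10.92). The groups overlapped. Experiment 1 had the lowest GFP and the highest Pax5 level, and in experiment 8 both arrays were at 11.32. Polr1e fell by 0.54 on the log2 scale (SE 0.148, limma adjusted p = 0.0112), in 6 of 8 experiments, and it did not pass the methods' paired t-test (adjusted p = 0.0957). Its difference of 0.56 in experiment 1 was the highest of any of the genes in any experiment. Polr1b, the second largest subunit, lay at 8.86 to 9.27 in GFP arrays (median 9.01) and at 8.42 to 8.85 in Pax5 arrays (median 8.70). No Pax5 array reached the GFP range. Polr1b fell by 0.39 (SE 0.0952, limma adjusted p = 0.00492). Polr1c, which RNA polymerase I shares with RNA polymerase III, lay at 10.85 to 11.25 in GFP arrays (median 11.06) and at 10.43 to 10.86 in Pax5 arrays (median 10.70). These ranges overlapped at their edges, and Polr1c fell by 0.37 (SE 0.0902, limma adjusted p = 0.00508), in 8 of 8 experiments. Polr1a, the largest subunit, which forms the catalytic cleft with Polr1b, lay at 9.31 to 9.64 in GFP arrays (median 9.40) and at 9.53 to 9.68 in Pax5 arrays (median 9.62). It was the gene with the highest log2 fold change of all 41, at 0.18 (SE 0.0667, limma adjusted p = 0.0574), and 7 of 8 experiments had the higher level with Pax5. Polr1a passed the threshold in 5 of 15 alternative settings, among them the fit without the experiment block (adjusted p = 0.00417). That fit ignores that the arrays of an experiment deviated in opposite directions, so its p can be too small.

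The transcripts of all 3 listed core proteins of the box C/D ribonucleoprotein fell (median -0.31). Snu13, a further core protein that was not among the listed genes, had a log2 fold change of -0.15 and did not pass the test (limma adjusted p = 0.161). Nop58 lay at 14.10 to 14.48 in GFP arrays (median 14.25) and at 13.42 to 13.73 in Pax5 arrays (median 13.64). The groups were apart by more than the width of the Pax5 group, and Nop58 fell by 0.67 to 63.0% of the GFP level (SE 0.0825, limma adjusted p = 1.44e-05). Nop56, which pairs with Nop58 on the guide RNA, lay at 15.07 to 15.57 in GFP arrays (median 15.36) and at 14.92 to 15.28 in Pax5 arrays (median 15.05). The groups overlapped, and Nop56 fell by 0.31 (SE 0.0875, limma adjusted p = 0.0124), with an adjusted p of 0.052 in the methods' paired t-test. Fbl, fibrillarin, the methyltransferase of the complex, lay at 12.45 to 12.82 in GFP arrays (median 12.56) and at 12.10 to 12.46 in Pax5 arrays (median 12.38). These ranges overlapped at their edges, and Fbl fell by 0.24 (SE 0.0824, limma adjusted p = 0.0343). Its call was among the least stable, lost in 6 of 15 alternative settings, among them the leaving out of experiment 1, 2, 4 or 7 (adjusted p of 0.0982, 0.061, 0.0633 and 0.0868).

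Among box H/ACA proteins, which carry out pseudouridylation and also belong to telomerase, 1 of 3 measured fell (median -0.14). Gar1, a small protein that docks on the enzyme, lay at 8.10 to 8.46 in GFP arrays (median 8.24) and at 7.67 to 7.85 in Pax5 arrays (median 7.73). The groups did not overlap, and Gar1 fell by 0.54 (SE 0.0731, limma adjusted p = 3.83e-05). The pseudouridine synthase Dkc1, dyskerin, had a log2 fold change of -0.14 (SE 0.0671, limma adjusted p = 0.122) and was below its GFP partner in 7 of 8 experiments. Nop10 had a log2 fold change of 0.01 (SE 0.0736, limma adjusted p = 0.914). Whether Gar1 differs in its change from Dkc1 and Nop10 was not tested.

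The UTP-A complex is the earliest to bind the nascent precursor and is needed in yeast for its transcription. All 4 measured subunits fell (median -0.44). Wdr43 lay at 13.96 to 14.52 in GFP arrays (median 14.33) and at 13.39 to 13.57 in Pax5 arrays (median 13.44). The Pax5 arrays were below the GFP range and closer together, and Wdr43 fell by 0.78 to 58.1% of the GFP level (SE 0.084, limma adjusted p = 3.28e-06). Heatr1, the largest protein of the complex, lay at 9.34 to 10.06 in GFP arrays (median 9.78) and at 9.08 to 9.32 in Pax5 arrays (median 9.21). Its groups were next to each other without overlap, and Heatr1 fell by 0.55 (SE 0.091, limma adjusted p = 0.00023), with differences from -0.98 in experiment 4 to -0.02 in experiment 1. Utp15 lay at 11.43 to 11.88 in GFP arrays (median 11.77) and at 11.30 to 11.48 in Pax5 arrays (median 11.37). The groups overlapped slightly, and Utp15 fell by 0.34 (SE 0.0795, limma adjusted p = 0.00379). Utp4, known as cirhin, fell by 0.34 as well (SE 0.0971, limma adjusted p = 0.0141), but it did not pass the methods' paired t-test (adjusted p = 0.0703). In experiment 1 its GFP array was below the other GFP arrays, at 12.90, and its Pax5 array was above the other Pax5 arrays, at 13.30.

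Of 7 further proteins of the small subunit processome, 6 fell and 1 did not pass the test (median -0.35). Rrp9, the U3-specific protein of the ribonucleoprotein at the centre of the processome, lay at 8.78 to 9.24 in GFP arrays (median 8.95) and at 8.18 to 8.75 in Pax5 arrays (median 8.47). No Pax5 array was within the GFP range, and Rrp9 fell by 0.46 (SE 0.105, limma adjusted p = 0.00286). Utp18, a WD repeat protein of the UTP-B complex, lay at 12.93 to 13.23 in GFP arrays (median 13.08) and at 12.56 to 12.68 in Pax5 arrays (median 12.64). Its Pax5 arrays were tightly grouped below the GFP arrays, and Utp18 fell by 0.44 (SE 0.0654, limma adjusted p = 8.41e-05). Noc4l, the partner of Nop14, lay at 8.87 to 9.46 in GFP arrays (median 9.27) and at 8.60 to 9.13 in Pax5 arrays (median 8.82). The groups overlapped, and Noc4l fell by 0.41 (SE 0.111, limma adjusted p = 0.00993), with an adjusted p of 0.0716 in the methods' paired t-test. The RNA helicase Ddx10 fell by 0.35, the processome protein Utp14a by 0.29 and Nol10 by 0.26. The call of Nol10 was lost without experiment 3 (adjusted p = 0.0642) or 4 (0.0666). Utp20, a long repeat protein, had a log2 fold change of -0.15 (limma adjusted p = 0.0877), with differences of 0.00 or below in every experiment.

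Later steps of small subunit maturation were measured by Ltv1 and Nob1. Ltv1, an assembly factor that leaves the particle in the cytoplasm, lay at 12.67 to 12.92 in GFP arrays (median 12.72) and at 12.14 to 12.42 in Pax5 arrays (median 12.30). The groups were apart, and Ltv1 fell by 0.47 (SE 0.0715, limma adjusted p = 0.000109). Nob1, the nuclease that makes the final cut of the small subunit RNA, had a log2 fold change of -0.13 (SE 0.0833, limma adjusted p = 0.252) and was lower in 5 of 8 experiments.

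**Figure D2:**
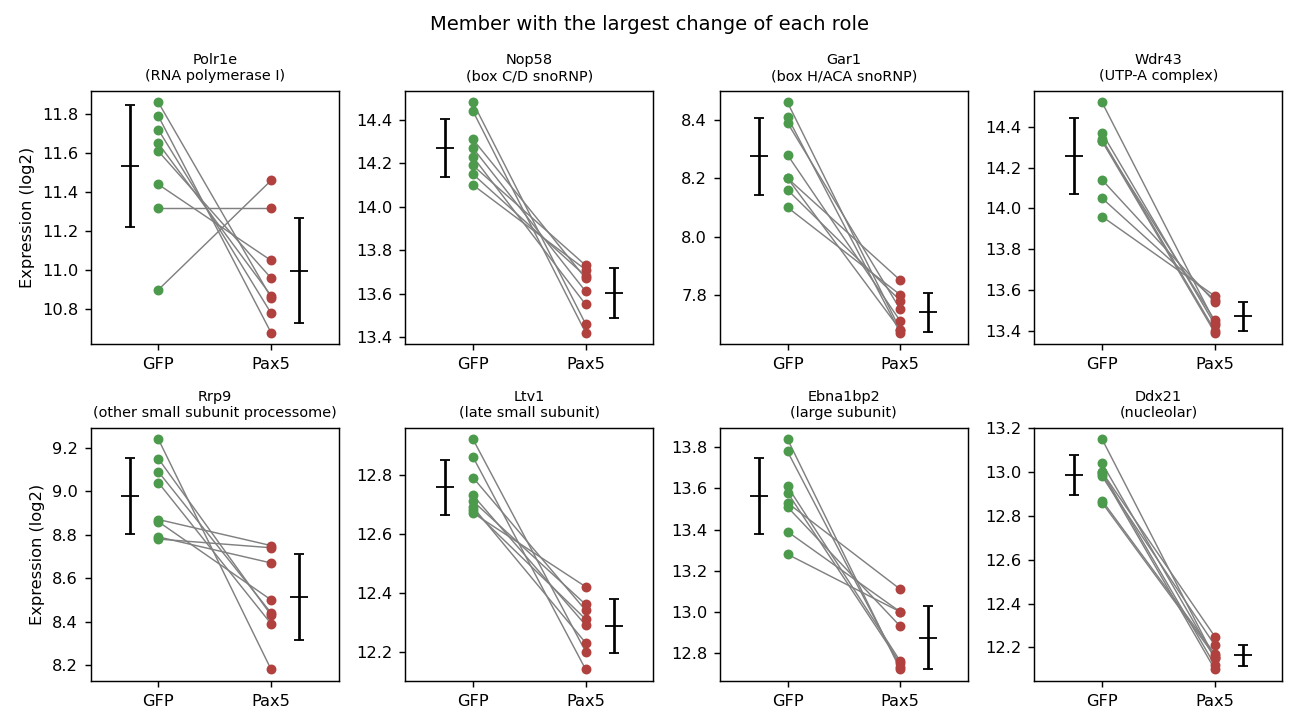
Expression (log2) of the gene with the largest change of each role, with 1 point per array, lines joining the GFP and the Pax5 array of an experiment, and the mean with SD (bars, n = 8) beside each group. The y axes do not start at 0 and differ between panels, and the 2 groups overlap for Polr1e only.

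Of 13 measured factors of the large subunit, 9 fell and 4 did not pass the test (median -0.38). Ebna1bp2, a nucleolar scaffold protein needed for processing in yeast, lay at 13.28 to 13.84 in GFP arrays (median 13.56) and at 12.72 to 13.11 in Pax5 arrays (median 12.84). No overlap was seen, and Ebna1bp2 fell by 0.69 to 62.0% of the GFP level (SE 0.0959, limma adjusted p = 4.49e-05). Gnl3, the GTPase nucleostemin, lay at 11.95 to 12.40 in GFP arrays (median 12.22) and at 11.34 to 11.74 in Pax5 arrays (median 11.52). The groups were again apart, and Gnl3, whose promoter above holds both an E-box and a GCGTGAC, fell by 0.68 (SE 0.0952, limma adjusted p = 4.65e-05). Wdr12 lay at 9.98 to 10.51 in GFP arrays (median 10.27) and at 9.50 to 9.88 in Pax5 arrays (median 9.59). These groups did not overlap either, and Wdr12 fell by 0.64 (SE 0.0859, limma adjusted p = 3.49e-05).

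Wdr12 acts in the PeBoW complex with Bop1 and Pes1, which processes the precursor of the large subunit RNA. Bop1 fell by 0.45 (SE 0.102, limma adjusted p = 0.00322), in 7 of 8 experiments. Pes1 had a log2 fold change of -0.01 (SE 0.0729, limma adjusted p = 0.953), from -0.38 in experiment 2 to 0.16 in experiment 1. The differences between these 3 partners were not tested. Among the other factors, Rrs1, which helps to add the 5S RNA, fell by 0.46, the RNA methyltransferase Nop2 by 0.38, the helicase Ddx18 by 0.38, Nop16 by 0.26 and the helicase Ddx56 by 0.24. The call of Ddx56 was lost without experiment 3, 4, 6 or 7 (adjusted p of 0.0653, 0.0599, 0.0509 and 0.0551). The 3 other genes that did not pass the test were Noc3l, at -0.14 (limma adjusted p = 0.209), its partner Noc2l, at -0.05 (0.632), and Brix1, at 0.01 (0.926). Brix1, a bright gene whose 16 arrays all lay between 14.21 and 14.38, had the smallest range over the 16 arrays.

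The transcripts of all 5 abundant proteins of the nucleolus fell, each in 8 of 8 experiments and with no overlap between the groups (median -0.47). Ddx21, a helicase that takes part in both the transcription and the processing of ribosomal RNA, lay at 12.86 to 13.15 in GFP arrays (median 13.00) and at 12.10 to 12.25 in Pax5 arrays (median 12.16). The gap between the groups was larger than either group's range. Ddx21 had the largest fall of all 41 genes, by 0.82 to 56.5% of the GFP level (SE 0.0645, limma adjusted p = 1.08e-07), and its difference was -0.70 or below in every experiment. Mybbp1a, a nucleolar protein that binds MYB and takes part in RNA polymerase I regulation, lay at 12.16 to 12.56 in GFP arrays (median 12.36) and at 11.49 to 11.83 in Pax5 arrays (median 11.74). The groups were apart, and Mybbp1a fell by 0.63 (SE 0.0791, limma adjusted p = 1.64e-05). Ncl, nucleolin, lay at 15.99 to 16.23 in GFP arrays (median 16.15) and at 15.58 to 15.78 in Pax5 arrays (median 15.66). These ranges were also separate, and Ncl fell by 0.47 (SE 0.0704, limma adjusted p = 9.32e-05). Nolc1, the chaperone of small nucleolar ribonucleoproteins known as Nopp140, fell by 0.46 (SE 0.0867, limma adjusted p = 0.00066). Npm1, nucleophosmin, lay at 17.55 to 17.70 in GFP arrays (median 17.62) and at 17.34 to 17.48 in Pax5 arrays (median 17.41). The groups did not overlap, and Npm1 fell by 0.22 (SE 0.0627, limma adjusted p = 0.0151). Npm1 has many near-identical copies in mammalian genomes, and it is the brightest of the genes, near the top of the array's range, so its change is uncertain in size.

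**Figure D3:**
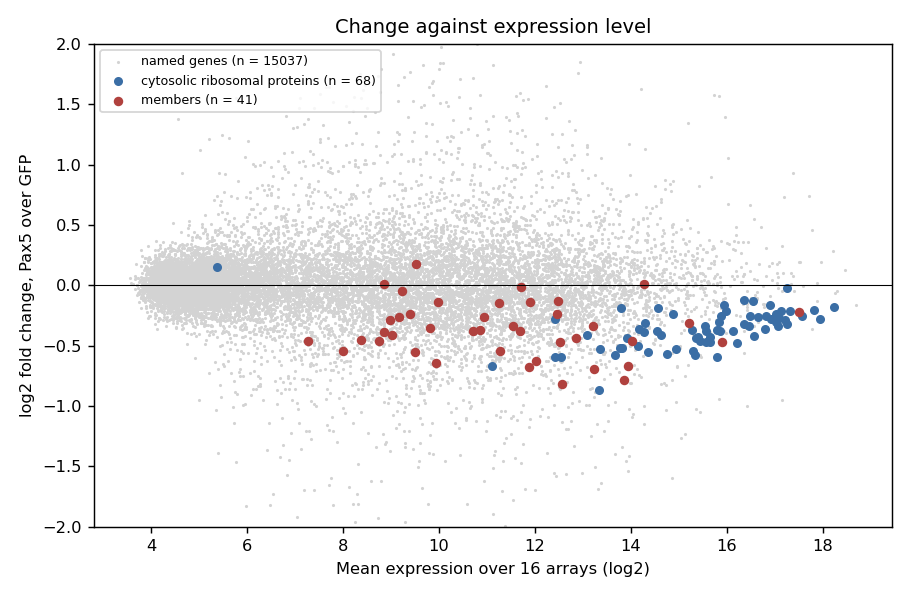
Limma log2 fold change of Pax5 over GFP against mean expression over 16 arrays (log2) for 15037 named genes (grey), with the 41 ribosome biogenesis genes in red and 68 cytosolic ribosomal proteins in blue. Most red and blue points lie below 0 across the range of brightness, and 41 named genes lie beyond the plotted range of 2 log2 units on either side.

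The fall was seen in each experiment, to different degrees. The median difference over the 41 genes was -0.14 in experiment 1, -0.21 in experiment 2, -0.50 in experiment 3 and -0.60 in experiment 4. In experiments 5 to 8 it was -0.38, -0.41, -0.29 and -0.25. The median over all clusters lay between -0.02 and 0.02 in each experiment. Experiment 1 stood apart, with 27 of 41 genes lower and 13 higher, whereas 35 to 38 genes were lower in each of the others. In experiment 1, 16 genes had their least negative or most positive difference, 18 had their lowest GFP array and 13 had their highest Pax5 array. The arrays of an experiment deviated in opposite directions, so these counts are not separate observations. Experiment 4 held the most negative difference of 17 genes. All clusters called lower with Pax5 had medians of -0.38, -0.31, -0.47 and -0.51 in experiments 1 to 4 and of -0.41, -0.45, -0.36 and -0.34 in experiments 5 to 8. The rise of Pax5 itself was largest in experiment 1, at 10.33, and was 9.55 in experiment 4. Why the experiments differ was not tested.

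Myc, the regulator described above, lay at 13.48 to 14.14 in GFP arrays (median 13.90) and at 12.30 to 13.00 in Pax5 arrays (median 12.72). The groups did not overlap. Myc fell by 1.15 to 45.0% of the GFP level (SE 0.13, limma adjusted p = 5.83e-06), more than any of the 41 genes. Its differences were -0.56, -0.48, -1.82 and -1.43 in experiments 1 to 4 and -1.40, -1.58, -1.11 and -0.84 in experiments 5 to 8. Experiments 3 to 6 had both the 4 largest falls of Myc and the 4 most negative medians of the ribosome biogenesis genes, and the same 4 experiments had the most negative medians of all clusters called lower, so the order is not particular to these genes. This is a description of 8 experiments, in which the arrays of an experiment are shared by both measures, and a part of Myc in the fall of the other genes was not tested. Of 10 measured genes of the MYC network (14 listed), 4 fell and 2 rose. The MYC partner Max fell by 0.28, and Mxi1 and Mnt, which compete with MYC for Max, by 0.50 and 0.27. Mlxipl, known as ChREBP, a glucose-sensing factor of the same network, rose by 0.83 (limma adjusted p = 1.08e-06), and its partner Mlx by 0.61 (1.92e-05).

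**Figure D4:**
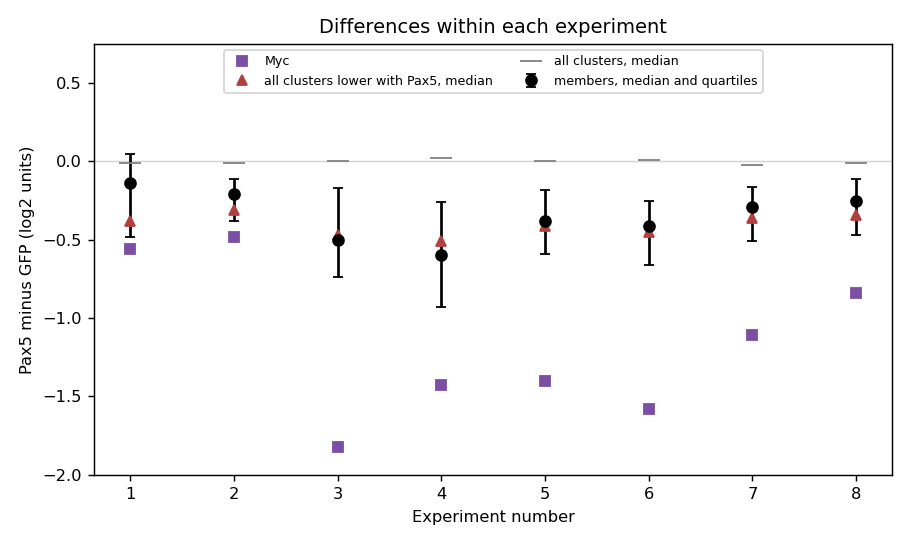
Difference between the Pax5 and the GFP array (log2 units) in experiments 1 to 8, for the 41 ribosome biogenesis genes (circles, median, with bars from the lower to the upper quartile), Myc (squares), all clusters called lower with Pax5 (triangles, median) and all clusters (dashes, median). The genes' median runs from -0.14 in experiment 1 to -0.60 in experiment 4, and Myc from -0.48 to -1.82.

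Other genes of the pathway, from lists drawn up by role, were read against the 16.1% of clusters that were lower and the 14.6% that were higher. Of 14 other genes of RNA polymerase I transcription (19 listed), 2 fell and 1 rose, with a median log2 fold change of 0.04. Taf1a, a subunit of the promoter selectivity factor, fell by 0.53 (SE 0.0793, limma adjusted p = 8.67e-05), Polr1f fell by 0.31, and Polr2l, a small subunit shared by all nuclear RNA polymerases, rose by 0.26. The activator Ubtf was at 0.18 (limma adjusted p = 0.0709) and the initiation factor Rrn3 at -0.14 (0.17), and Polr1g, at 4.12 in GFP arrays, was dim. Of 18 genes of RNA polymerase III (21 listed), which transcribes the 5S RNA and tRNAs, 5 fell and 3 rose (median -0.05). Crcp fell by 0.85, Polr3e by 0.46 and Polr3f by 0.38. The shares of genes lower in these lists, 14.3% and 27.8%, were nearer to the background than that of the 41 genes. Among named genes as bright as the dimmest of the 41 or brighter, the share lower was 25.2%.

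Assembly factors outside the 41 genes had more falls than rises, but a smaller share fell than the 78.0% of the 41 genes. The 41 genes were chosen with earlier results of these data known, which can raise their share, and the difference was not tested. The shares were 51.4% and 50.0% in the small and large subunit lists. They were 50.0% for small nucleolar ribonucleoproteins and 38.1% for the RNA exosome and RNase MRP. In the small subunit list, 18 of 35 measured genes fell and 1 rose (45 listed, median -0.25). The kinase Riok3 fell by 0.71 and the processome protein Wdr3 by 0.61, whereas Imp3, a protein of the U3 ribonucleoprotein, rose by 0.68 (SE 0.107, limma adjusted p = 0.000147). Imp3 lay at 9.96 to 10.35 in GFP arrays and at 10.53 to 11.04 in Pax5 arrays, with no overlap. In the large subunit list, 24 of 48 fell and 0 rose by limma (54 listed, median -0.22), with 0 higher at an unadjusted p under 0.05 and 0 by the methods' paired t-test. Pwp1 fell by 0.68, and the GTPases Gnl2 and Gtpbp4 by 0.72 and 0.54. Of 10 assembly factors and partners of small nucleolar ribonucleoproteins, with Snu13 counted here (13 listed), 5 fell and 0 rose (median -0.19). None was higher at an unadjusted p under 0.05 or by the methods' paired t-test. These included Naf1, which precedes Gar1 on the box H/ACA particle, by 0.60, and the ATPases Ruvbl2 and Ruvbl1, by 0.63 and 0.35. Of 21 proteins of the RNA exosome and RNase MRP (26 listed), 8 fell and 0 rose, again with 0 higher at an unadjusted p under 0.05 and by the methods' paired t-test (median -0.08). Mphosph6 fell by 0.80, Rpp38 by 0.54 and Exosc2 by 0.47.

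Transcripts of most ribosomal proteins also fell. Of 42 cytosolic large subunit proteins (47 listed), 34 fell and 0 rose by limma, with 1 higher at an unadjusted p under 0.05 and 0 by the methods' paired t-test (81.0% lower, median -0.33). Rpl13 fell by 0.87, Rpl14 by 0.59 and Rpl3 by 0.46. The cluster of Rpl13 is labelled as unmapped on the array, so its place in the genome is not given. Of 26 small subunit proteins (32 listed), 25 fell and 0 rose, with 0 higher at an unadjusted p under 0.05 and by the methods' paired t-test (96.2% lower, median -0.43). Rps12 fell by 0.57, Rps3 by 0.54 and Rps6 by 0.48. Most ribosomal protein genes have near-identical copies in the genome and many are near the top of the array's range, so the sizes of these changes are uncertain. Their promoters held CACGTG in 8.62% and GCGTGAC in 10.3% of 58 cases, against 34.2% and 15.8% for the ribosome biogenesis genes, with no test of the difference.

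Genes known to respond when ribosome assembly fails, through p53, moved in both directions. Of 12 measured (15 listed), 6 fell (50.0%) and 4 rose (33.3%) by limma, against 16.1% and 14.6% of all clusters (median -0.16). The methods' paired t-test gave fewer, with 2 lower and 3 higher. In 0 of these genes did every Pax5 array lie below every GFP array. Ccng1, a cyclin induced by p53, rose by 0.51 (limma adjusted p = 0.000495). The pro-apoptotic Bbc3 fell by 0.46 (0.00167), and the stress-induced Sesn2 by 0.81 (0.0017). Cdkn1a, the cell cycle inhibitor p21, had a log2 fold change of -0.12 (SE 0.152, limma adjusted p = 0.605), and Mdm2, the ubiquitin ligase of p53, fell by 0.20 (0.0495).

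**Figure D5:**
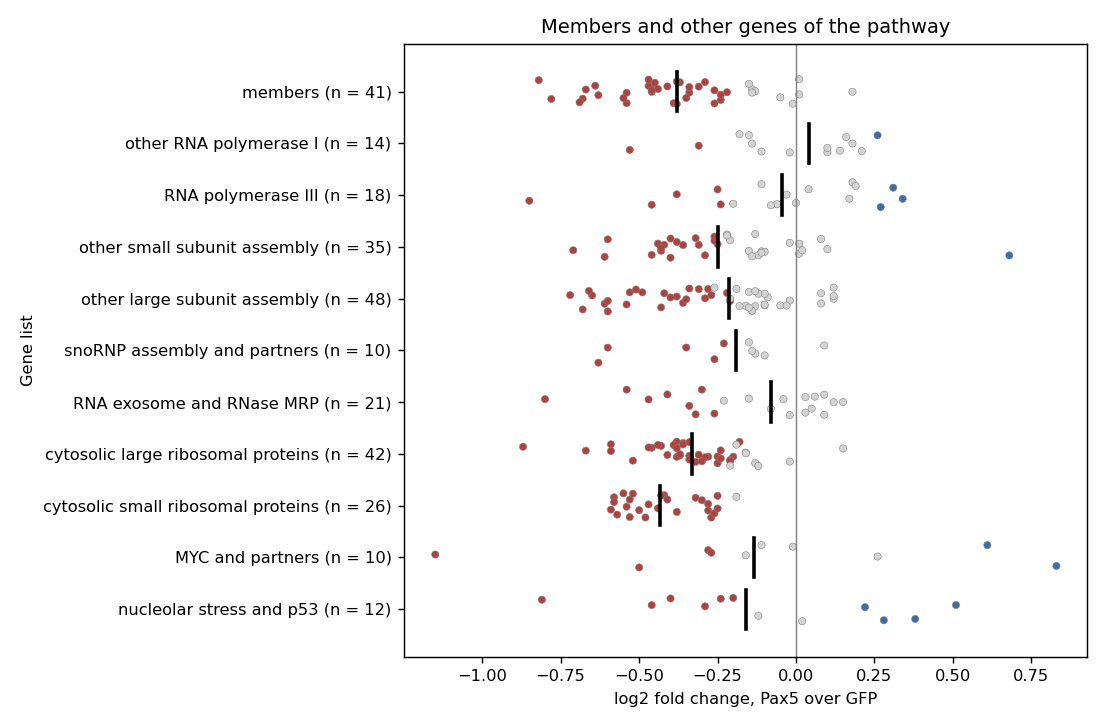
Limma log2 fold change of Pax5 over GFP for single genes (points) of each list, coloured red where lower, blue where higher and grey where the adjusted p was 0.05 or more, with the median of the list (black bar). The median is -0.38 for the 41 ribosome biogenesis genes (members), -0.33 and -0.43 for ribosomal proteins and 0.04 for other genes of RNA polymerase I.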

How the data were processed

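Biotin-labelled RNA was hybridized to 16 GeneChip arrays of 1 colour. The deposited values are on the log2 scale, and the submitters' processing notes name RMA and the Transcriptome Analysis Console, with versions not given in the sources used here. RMA corrects background, normalizes arrays to each other and summarises the probes of a cluster, so a difference is relative to the other transcripts of an array, and a fall shared by all transcripts would not be seen. No filter was set on these values, and 0 columns of per-sample values were left unused. Scanner files were not used here.

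The comparison of Pax5 with GFP was fitted with limma 3.58.1 in R 4.3.3 (lmFit, eBayes). Experiment number entered as a fixed block, with Benjamini-Hochberg adjustment across 23188 clusters and a threshold of 0.05. The script was tested on simulated data. Single genes were also tested by exact sign flips over the 8 pairs (256 arrangements, 2-sided). Arrays were paired by the experiment number in their labels. As a check, deviations of same-numbered arrays from their group means correlated between -0.749 and -0.704, against -0.0893 to 0.259 for different numbers. Same-numbered arrays thus deviated in opposite directions, and the sources used here do not say whether experiment means had been removed.

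The genes and lists were chosen with earlier results of these data known. Full values are given for up to 3 genes past the threshold with the largest change in each role, and for any gene higher with Pax5. From each other list, up to 3 genes with the lowest p are named, most of them with their change only. Npm1, Polr1a, Snu13, Max, Mxi1, Mnt, Ubtf, Rrn3, Polr1g, Cdkn1a and Mdm2 are given outside these rules and were chosen after their values were seen. Promoters came from a RefSeq table (GRCr8), with the start at the head of the list used where a gene had several (3251 genes, of which 1 was among those measured), and protein sequences were not used here. Alternatives were the omission of the block, of each experiment in turn or of the dimmest 30% of clusters, median centring, quantile normalization, array weights, trended and robust eBayes, the methods' paired t-test and an adjusted p under 0.01.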

Additional observations from a re-analysis of the deposited data

Results flagged for a closer look

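Of 82 groups of 8 arrays (41 genes, GFP and Pax5), 4 had an array whose gap to the nearest other array was, as a share of the group's range, over Dixon's 95% value. Chance flags about 1 in 20 groups, or 4.1 of 82. In experiment 1, the GFP array was the lowest for Utp4, at 12.90 against 13.33 for the nearest array, and for Nop2, at 11.50 against 11.83. The Pax5 array of that experiment was the highest for both genes, at 13.30 and 11.82, without passing Dixon's value. In experiment 2, the GFP array was the highest for Pes1, at 11.87 against 11.73. In experiment 3, the Pax5 array was the lowest for Dkc1, at 9.72 against 9.90.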

How the results depend on the processing

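Between 23 and 34 genes were lower over all alternatives, against 32. The count was 29 to 32 when 1 experiment was left out, and 23 at an adjusted p under 0.01. The median log2 fold change lay between -0.43 and -0.33 over all alternatives. Of the 32 lower genes, 25 passed in all 15 settings that refit or retest the data. None of the 32 changed direction in any setting, whereas genes near 0 that did not pass, such as Pes1 and Nop10, changed sign in some. The count of genes higher with Pax5 was 0 and became 1, Polr1a, without the replicate block, with quantile normalization, with the dimmest 30% left out and in the methods' paired t-test, and lay between 0 and 1 when 1 experiment was left out (1 without experiment 4). Without the replicate block, Dkc1 (adjusted p = 0.0311) and Utp20 (0.00923) were also lower, and 34 genes passed. Leaving out the block treats the arrays of an experiment as independent, although they deviated in opposite directions, so its p can be too small. The block changed no other call of the 41 genes. Quantile normalization gave 31 lower genes, Fbl being lost (0.0556), and the methods' paired t-test gave 28. Genes of other lists that were higher numbered 4 without the replicate block and 2 with quantile normalization, against 1, for RNA polymerase I, 6 against 3 for RNA polymerase III and 1 against 0 for large ribosomal proteins, both without the block. The cause of these changes was not tested. Averaging the clusters of a symbol could not differ, since each gene had 1 cluster. The number of arrays limits the precision, with a median SE of 0.082 log2 units over the 41 genes, and signal over background could not be examined without scanner files.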
